A study of Mus musculus with 2 samples.

Results

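The genes described here are 37 genes of glycolysis and of the response to low oxygen, 20 that carry glucose from uptake to lactate and 17 that belong to the hypoxia response. They were chosen by symbol as pathway members, and all 37 were found among the 27998 genes of the count tables. Their levels were read per cell class, per cluster of fibroblast-like cells and per library, from 2 libraries of 10x Genomics 3′ single-cell RNA sequencing of mouse pancreas.

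Both groups of mice carried the Rosa26mTmG/+ reporter and Fabp4-Cre. In this system a cell in which Cre has ever been active changes from a red to a green membrane protein, so GFP marks a lineage, and Fabp4 is also active outside fibroblasts, in endothelial cells, macrophages and adipocytes. The normal library came from GFP+ cells of pancreata of mice aged 6 to 9 weeks and is labelled as pancreatic stellate cells. The tumour library came from mice that received orthotopic FC1245 cells, a mouse pancreatic cancer line, at 8 weeks of age, was taken 21 days later, was sorted on GFP together with podoplanin (PDPN), a surface protein of many fibroblasts, and is labelled as cancer-associated fibroblasts. Only the tumour was sorted on PDPN, and the enzymes and the length of digestion differed as well, so sort, digestion and tumour cannot be told apart. The labels used here do not say how many mice entered a library. With 1 library per group no test between the groups was possible, and every interval below is a 95% interval of counting error alone.

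Depth was counted in unique molecular identifiers (UMIs, a tag for each captured transcript), 36675424 over 5437 barcodes of the normal and 33285044 over 2942 barcodes of the tumour library. After filters, 4515 normal and 2520 tumour cells remained, and 2 of their barcodes occurred in both libraries. Fibroblast-like cells, named from markers such as the matrix genes Col1a1 and Dcn and the receptor gene Pdgfra, were 1480 of the normal cells (32.8%) and 2223 of the tumour cells (88.2%). The rest of the normal library was mainly endothelial-like (1351 cells), macrophage-like or monocyte-like (737 cells) and an unnamed cluster of 676 cells led by Siglech and Cd209d. Median depth was 9019 UMIs in normal and 10443 UMIs in tumour fibroblast-like cells, and levels are given as CPM, the UMIs of a gene over all cells of a group per 1000000 UMIs of that group.

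Glycolysis splits glucose into pyruvate, and lactate dehydrogenase then turns pyruvate into lactate, which leaves the cell through monocarboxylate transporters. When oxygen falls, prolyl hydroxylases no longer mark HIF-1 alpha for degradation, and the factor pairs with ARNT and binds DNA at a short core, ACGTG or GCGTG, near genes of glucose uptake, glycolysis, mitophagy, pH control and blood vessel growth. HIF-1 alpha is controlled mostly as a protein, so the level of its mRNA is a separate quantity. In pancreatic cancer the stroma is dense and poorly supplied with blood, and glycolytic fibroblasts and hypoxia within such tumours are both well described.

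The promoters of the members show how common that core is among them. In RefSeq promoters of GRCm38.p6, windows from 250 bases before to 50 bases after a gene's start, 33 of the 37 genes were matched. At least 1 of their windows held ACGTG on either strand in 22 of 33 genes (66.7%), against 21.8% of all 27025 genes in the table. By window, 25 of 47 member promoters (53.2%) and 19.6% of all 32851 held ACGTG. For GCGTG the shares were 46.8% and 32.4%, and 10.6% and 7.15% held CACGTG, which contains ACGTG on both strands and was therefore counted as 2 matches. The median GC content was 64.7% in the member windows and 52.7% over all windows, and its part in these shares was not tested. The promoters below are those of 4 genes highest in 1 tumour cluster (Slc16a3, Egln3, Bnip3 and Slc2a1), of Hk2, which was high in every tumour cluster, and of Adm and Vldlr, which were lower in the tumour. Each runs 5′ to 3′ along the gene's strand, and capitals mark ACGTG or GCGTG in either orientation. The windows lie at chr11:120948817-120949116 (plus strand, Slc16a3), chr12:54203825-54204124 (minus, Egln3), chr7:138909457-138909756 (minus, Bnip3), chr4:119108495-119108794 (plus, Slc2a1), chr6:82774405-82774704 (minus, Hk2), chr7:110627407-110627706 (plus, Adm) and chr19:27216770-27217069 (plus, the second of the Vldlr windows).
Slc16a3: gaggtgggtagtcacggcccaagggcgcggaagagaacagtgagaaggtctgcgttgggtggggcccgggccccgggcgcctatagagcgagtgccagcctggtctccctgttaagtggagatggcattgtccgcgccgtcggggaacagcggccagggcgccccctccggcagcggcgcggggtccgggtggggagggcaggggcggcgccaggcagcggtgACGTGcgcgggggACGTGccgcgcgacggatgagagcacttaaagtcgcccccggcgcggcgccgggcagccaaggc
Egln3: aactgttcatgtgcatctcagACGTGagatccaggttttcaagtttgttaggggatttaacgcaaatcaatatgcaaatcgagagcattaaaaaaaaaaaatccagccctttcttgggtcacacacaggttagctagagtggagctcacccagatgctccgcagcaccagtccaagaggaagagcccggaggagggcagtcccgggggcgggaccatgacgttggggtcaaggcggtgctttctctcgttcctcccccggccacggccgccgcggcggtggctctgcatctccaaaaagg
Bnip3: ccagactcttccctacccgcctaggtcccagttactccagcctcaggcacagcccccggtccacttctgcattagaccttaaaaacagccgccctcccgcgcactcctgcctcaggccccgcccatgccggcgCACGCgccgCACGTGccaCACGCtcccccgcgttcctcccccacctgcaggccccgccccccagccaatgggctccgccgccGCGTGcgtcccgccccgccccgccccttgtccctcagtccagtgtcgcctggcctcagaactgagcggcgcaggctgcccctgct
Slc2a1: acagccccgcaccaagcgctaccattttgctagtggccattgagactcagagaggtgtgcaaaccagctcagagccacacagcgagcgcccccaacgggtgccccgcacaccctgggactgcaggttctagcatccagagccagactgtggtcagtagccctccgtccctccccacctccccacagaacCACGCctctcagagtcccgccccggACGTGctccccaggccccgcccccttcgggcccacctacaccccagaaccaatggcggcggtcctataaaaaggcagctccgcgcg
Hk2: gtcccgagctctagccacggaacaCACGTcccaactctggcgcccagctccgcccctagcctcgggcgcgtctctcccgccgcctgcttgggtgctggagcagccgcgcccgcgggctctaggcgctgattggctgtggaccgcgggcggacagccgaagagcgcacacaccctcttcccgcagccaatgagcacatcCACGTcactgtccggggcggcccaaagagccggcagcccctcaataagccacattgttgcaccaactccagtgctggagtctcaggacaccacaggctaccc
Adm: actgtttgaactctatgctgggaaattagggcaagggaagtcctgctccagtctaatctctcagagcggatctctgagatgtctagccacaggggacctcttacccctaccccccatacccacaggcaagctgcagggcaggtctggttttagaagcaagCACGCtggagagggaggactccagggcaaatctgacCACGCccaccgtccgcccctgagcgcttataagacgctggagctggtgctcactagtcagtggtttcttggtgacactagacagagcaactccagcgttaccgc
Vldlr: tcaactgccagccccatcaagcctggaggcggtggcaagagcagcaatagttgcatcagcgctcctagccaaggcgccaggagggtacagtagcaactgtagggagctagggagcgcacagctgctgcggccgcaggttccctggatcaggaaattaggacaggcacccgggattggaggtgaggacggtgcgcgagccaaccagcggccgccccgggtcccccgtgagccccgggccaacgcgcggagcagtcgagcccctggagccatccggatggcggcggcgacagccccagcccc
Slc16a3 and Hk2 had 2 ACGTG matches each, Egln3 had 1, Slc2a1 had 1 with 1 GCGTG, and Bnip3 had 2 ACGTG from a CACGTG beside 3 GCGTG. Ldha had 5 ACGTG matches, the most of any member window. The Adm window held 2 GCGTG and no ACGTG, and both Vldlr windows held neither. The genes printed were picked by their levels, and members not printed went the other way. Tpi1 and Eno1 were 3.26-fold and 5.08-fold higher in the tumour cluster with most Slc16a3 than in other tumour fibroblast-like cells. The Tpi1 window held neither core and no Eno1 window held ACGTG. Hk1, lower in every tumour cluster, had 2 ACGTG in 1 window. Whether the core goes with direction was not tested. These matches are letters in a window and not measured binding sites, and distal elements lie outside it.

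Tumour fibroblast-like cells had more RNA of the glucose transporter Slc2a1, of hexokinase Hk2, of the lower glycolytic enzymes and of most hypoxia response genes than normal fibroblast-like cells, and less of Adm and Vldlr. A member was called when its CPM differed at least 2-fold, its interval excluded 1 and it reached 50 CPM in either sum. Of the 21 members that reached 50 CPM, 12 were called higher, against 9.42% of all 3640 genes that reached it, and 2 were called lower, against 10.9%. By list the higher calls were 5 of 10 glycolysis members and 7 of 11 hypoxia response members. Slc2a1, Bnip3, Ddit4 and Ero1l reached 50 CPM in the tumour sum only, so their place among the 21 depends on the group in which they are high. The other 16 members stayed under 50 CPM in both sums, and 10 of them were still at least 2-fold higher with an interval above 1. The like share over all genes under 50 CPM was not counted, so these 10 are not set apart from it. The median log2 fold was 1.02 over 14 glycolysis members and 1.25 over 14 hypoxia response members at or above 20 CPM in the normal or the tumour sum, and −0.25 over 6809 genes at that level. Of these members 7 reached 20 CPM in the tumour sum only and 1 in the normal sum only. In bulk sums such as these, more cells with a transcript and more transcript per cell cannot be told apart, and shares of cells are given below where they help.

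The size of these differences depended on how cells were weighted. A sum of UMIs weights each cell by its depth, and 1 tumour cluster, led by Ptprn and described below, was the deepest, with 17.6% of the tumour fibroblast-like cells. With every cell given the same weight 5 members in place of 12 were called higher (Hk2, Hif1a, Ndrg1, Ddit4 and Mif), and with every cell thinned to 5000 UMIs there were 6, the same 5 with Slc2a1. Among all genes that reached 50 CPM, 343 were at least 2-fold higher at first, 325 at equal weight and 339 after thinning. How many genes reached 50 CPM under the latter settings was not counted. Without the Ptprn-led cluster the same 5 members were called higher of 17 that reached 50 CPM, against 8.72% of 3612 genes, and Vldlr alone was called lower, against 8.31%. Under scaling by TMM the median log2 fold of all genes moved from −0.25 to 0.11, 73.2% rather than 46.4% of the genes past 2-fold in either direction were higher, Ldha and Egln1 were called higher as well, and Adm was no longer called.

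**Figure D1:**
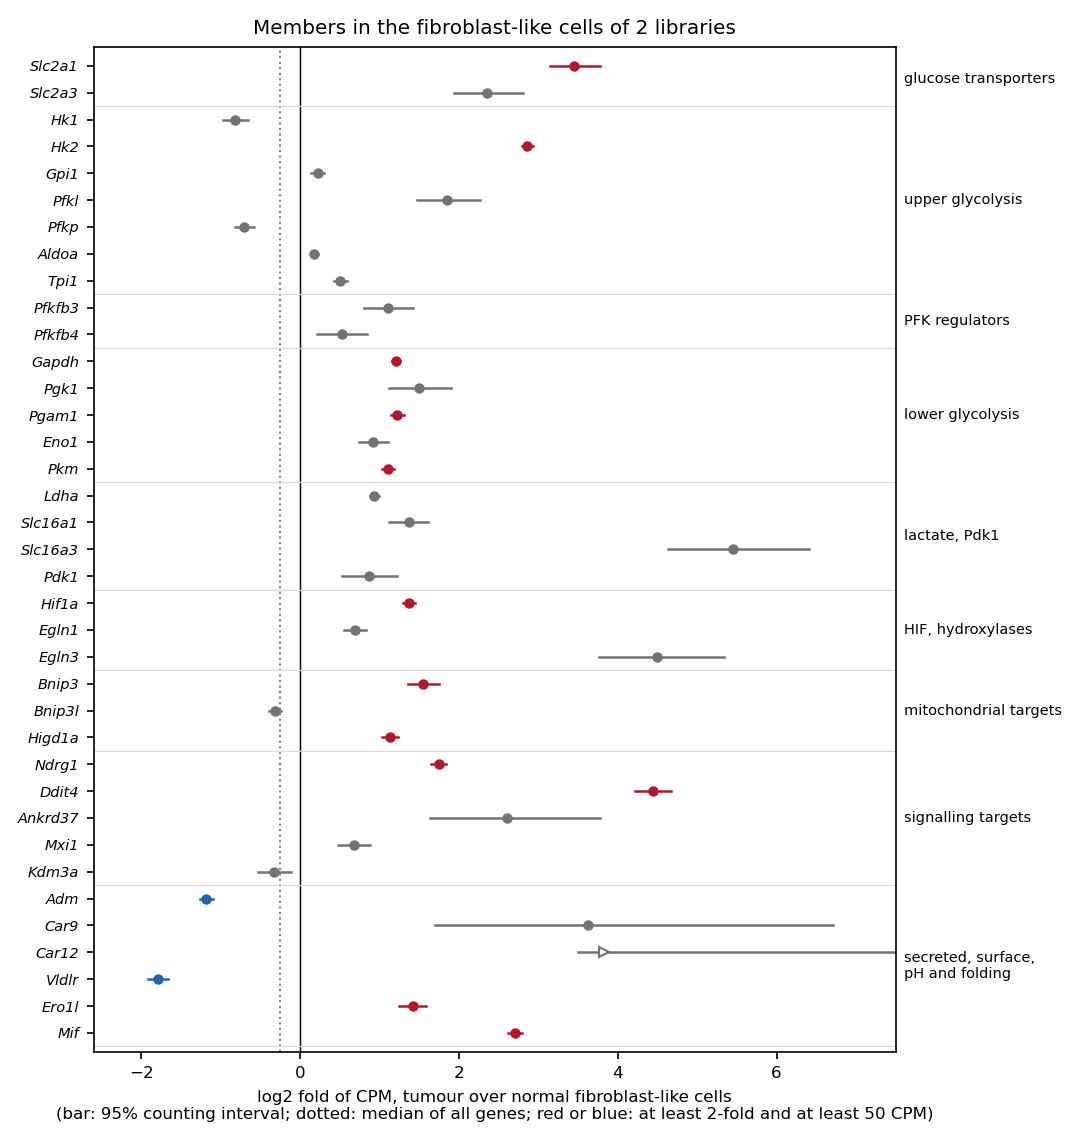
Log2 fold of CPM, tumour over normal fibroblast-like cells, for the 37 members by role. Points are folds, bars 95% counting intervals, the open triangle for Car12 a lower bound, and the dotted line the median of all genes. The 12 red members lie at or beyond a log2 fold of 1.11 and the 2 blue ones, Adm and Vldlr, at −1.18 and −1.79.

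Of the glucose transporters, Slc2a1, which encodes GLUT1 (ENSMUSG00000028645, GRCm38 chromosome 4, 119108711 to 119137983), was at 6.27 CPM (5.04 to 7.72) in normal and 68.5 CPM (65.5 to 71.6) in tumour fibroblast-like cells, a 10.9-fold difference (8.83 to 13.7). Slc2a3, which encodes the high-affinity transporter GLUT3, was at 3.45 CPM (2.55 to 4.57) and 17.7 CPM (16.2 to 19.3). Both were higher in the tumour, Slc2a3 below the level required for a call.

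The enzymes from glucose to triose phosphate did not move together. Hk2 (ENSMUSG00000000628, chromosome 6, 82725025 to 82774454), the inducible hexokinase that traps glucose in the cell, was at 119 CPM (113 to 124) in normal and 863 CPM (852 to 874) in tumour fibroblast-like cells, 7.27-fold higher (6.92 to 7.64). Hk1, the hexokinase of most resting tissues, stood at 45.5 CPM in normal against 25.8 CPM in tumour cells, 1.76-fold lower (1.58 to 1.96). The 2 hexokinases therefore differed in opposite directions, as log2 folds of 2.86 and −0.82, although Hk1 stayed under 50 CPM and short of 2-fold. Phosphofructokinase, the committed step, had genes on both sides too. Pfkl stood at 4.37 CPM in normal against 15.8 CPM in tumour cells, and Pfkp at 78.2 CPM and 48.0 CPM, a log2 fold of −0.70. Without the Ptprn-led cluster Pfkl was at 5.34 CPM, 1.22-fold above normal with an interval of 0.880 to 1.71, whereas Hk2 stayed 7.40-fold higher. Gpi1, Aldoa and Tpi1, which encode the isomerase before it, the aldolase after it and triose phosphate isomerase, had log2 folds of 0.22, 0.18 and 0.51. Without the Ptprn-led cluster these 3 stood at −0.16, −0.30 and −0.35. Pfkfb3 and Pfkfb4, bifunctional enzymes that set the activator of phosphofructokinase, were at 7.54 and 7.89 CPM in normal and 16.2 and 11.3 CPM in tumour cells.

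Of the 5 enzymes from triose phosphate to pyruvate, 3 were called higher, and none of these calls held with every cell weighted the same, after thinning or without the Ptprn-led cluster. Gapdh was at 309 CPM (299.6 to 318) in normal and 713 CPM (703 to 723) in tumour cells, 2.31-fold higher (2.23 to 2.39). Pgam1, phosphoglycerate mutase, was at 111 CPM (105 to 116) and 259 CPM (253 to 265), and Pkm, pyruvate kinase, at 127 CPM (121 to 133) and 273 CPM (267 to 279). The folds of the called enzymes were 2.31, 2.33 and 2.15. Eno1, enolase, was at 21.1 and 40.1 CPM, 1.89-fold higher (1.67 to 2.16), and Pgk1, phosphoglycerate kinase, at 4.58 and 13.0 CPM. Without the Ptprn-led cluster the folds over normal were 1.30 for Gapdh, 1.23 for Pgam1, 1.12 for Pkm, 1.07 for Pgk1 and 0.765 for Eno1. Several of these enzymes have processed pseudogenes or near-identical copies that can take reads in counting, so their absolute levels are uncertain.

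Among the lactate genes, the exporter Slc16a3 differed more than Ldha. Ldha, the lactate dehydrogenase subunit A, was at 206 CPM (199 to 214) in normal and 394 CPM (387 to 401) in tumour cells, 1.91-fold higher (1.83 to 1.99) and thus just under the 2-fold line. Slc16a3, which encodes the lactate exporter MCT4 (ENSMUSG00000025161, chromosome 11, 120948480 to 120960868), had 12 UMIs over all normal and 1061 over all tumour fibroblast-like cells, 0.846 CPM (0.437 to 1.48) and 36.9 CPM (34.7 to 39.2), the highest fold of a member with UMIs in both groups at 43.6 (24.9 to 84.7). Slc16a1, which encodes MCT1, was at 11.7 CPM and 30.1 CPM. Pdk1, a kinase that holds pyruvate back from the mitochondrion, was at 6.27 CPM and 11.4 CPM.

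Hif1a mRNA, which encodes the oxygen-regulated subunit, was at 109 CPM (104 to 115) in normal and 283 CPM (277 to 289) in tumour fibroblast-like cells, 2.58-fold higher (2.45 to 2.73). The prolyl hydroxylases that inactivate its product are themselves targets. Egln3 (PHD3) was at 1.06 CPM (0.592 to 1.74) and 23.8 CPM (22.0 to 25.6), and Egln1 (PHD2) at 39.7 CPM and 63.9 CPM, 1.61-fold (1.46 to 1.77). Of 16 other subunits and regulators of the HIF pathway, 8 reached 50 CPM and none was called, with a median log2 fold of −0.36 over 12 of them. Epas1, which encodes the HIF-2 alpha subunit, was the lowest of these at 77.0 CPM in normal against 40.6 CPM in tumour cells.

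Among mitochondrial targets, Bnip3, a mitophagy receptor, stood at 18.1 CPM in normal against 52.9 CPM in tumour cells, 2.92-fold higher (2.56 to 3.35), and Higd1a, a respiratory chain protein, at 63.5 CPM (59.4 to 67.8) and 139 CPM (135 to 144). Bnip3l, the paralog of Bnip3, was at 157 CPM and 126 CPM, and its log2 fold of −0.32 became 0.00 under TMM scaling. The mTOR inhibitor Ddit4 (ENSMUSG00000020108, chromosome 10, 59949669 to 59951834) was at 11.2 CPM (9.53 to 13.1) in normal and 243 CPM (237 to 249) in tumour cells, 21.7-fold higher (18.5 to 25.5), the largest difference among called members. Ndrg1, a stress-induced gene, was at 69.6 CPM (65.3 to 74.1) and 233 CPM (227 to 239), 3.34-fold higher (3.13 to 3.58). Ankrd37 was at 0.634 and 3.86 CPM and Mxi1, an antagonist of MYC, at 18.3 and 29.2 CPM. Kdm3a, a histone demethylase, was at 22.1 and 17.6 CPM.

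The secreted and surface targets went both ways. Mif, a cytokine, was at 85.6 CPM (80.9 to 90.6) in normal and 557 CPM (549 to 566) in tumour cells, 6.51-fold higher (6.14 to 6.91). Ero1l, an oxidase of protein folding, was at 24.3 CPM (21.8 to 27.0) and 64.9 CPM (62.0 to 67.9). Adm, the vasodilator peptide adrenomedullin, was at 187 CPM (180 to 194) in normal and 82.2 CPM (78.9 to 85.6) in tumour cells, 2.27-fold lower (2.15 to 2.40). Vldlr, a lipoprotein receptor, was at 94.0 CPM (89.0 to 99.2) and 27.2 CPM (25.3 to 29.2), 3.45-fold lower (3.16 to 3.78). Car9 and Car12, carbonic anhydrases at the cell surface, were rare. Car9 had 2 normal and 50 tumour UMIs, and Car12 had 86 tumour UMIs and 0 normal ones. Taking 3 counts as the limit of the normal sum, Car12 was at least 14.1-fold higher in the tumour.

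The tumour fibroblast-like cells fell into 4 clusters of at least 50 cells, formed with the 37 members left out of the variable genes, and the normal ones into 2. Another 39 normal and 38 tumour fibroblast-like cells lay outside these and entered the sums but no cluster level. Of these normal cells, 36 shared a cluster with the Smpd3-led tumour cells. The clusters are called by a leading gene. The normal clusters were led by Cxcl14 (1072 cells) and by Adamts16 (369 cells). The tumour clusters were led by Smpd3 (478 cells, with 7 of 9 universal fibroblast markers at least 2-fold above the other tumour fibroblast-like cells), by Chodl (858 cells, also Thbs4), by Try5 (458 cells, whose leading genes include the acinar transcripts Try5 and Ctrb1) and by Ptprn (391 cells). The Smpd3-led cluster also had 7 of 11 markers of inflammatory fibroblasts at least 2-fold higher. The Ptprn-led cluster had 9 of 12 myofibroblast-like markers at least 2-fold above the other tumour fibroblast-like cells, with Acta2 at 1180 CPM against 79.6 CPM and Cthrc1 at 409 CPM against 43.8 CPM. This cluster also had 2 of 3 markers of antigen-presenting fibroblasts and 2 of 11 of inflammatory ones at least 2-fold higher. Its median depth was 26316 UMIs, against 9219.5 in the other tumour fibroblast-like cells.

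The Ptprn-led cells held the highest level of 29 of the 37 members among the 6 clusters. The share of all genes that were highest in these cells was not counted. Against the other tumour fibroblast-like cells, 16 of 23 members that reached 50 CPM were called higher, against 5.57% of 3234 genes, and 1 was called lower, against 7.58%. The called members were 8 of 12 of glycolysis and 8 of 11 of the hypoxia response. Of the 16, Slc2a1, Eno1, Slc16a3, Egln1, Egln3, Bnip3 and Ero1l reached 50 CPM in the Ptprn-led cells only, so their place among the 23 depends on the cells in which they are high. The other 9 called members were at 50 CPM or more on both sides, as were 14 members in all. The median log2 fold was 1.70 over 19 glycolysis members, 1.13 over 13 hypoxia response members and 0.00 over all genes. The 20 CPM minimum bears on these medians, since 7 of the glycolysis members and Egln3 reached it in the Ptprn-led cells only. The same 16 members were called at a clustering resolution of 1, with the members allowed among the variable genes, with stricter and more lenient filters and with doublets kept, the last 3 added after the data were seen.

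Slc16a3 had the largest fold of the called members, 14.7, at 91.0 CPM against 6.21 CPM in the other tumour fibroblast-like cells. It was at 1.13 CPM (0.544 to 2.09) in the normal Cxcl14-led, 0.411 CPM (0.0498 to 1.48) in the normal Adamts16-led, 7.26 CPM (5.19 to 9.88) in the Smpd3-led, 6.62 CPM (5.04 to 8.54) in the Chodl-led, 4.09 CPM (2.29 to 6.74) in the Try5-led and 91.0 CPM (85.3 to 97.0) in the Ptprn-led cluster. The intervals of the Smpd3-led, Chodl-led and Try5-led clusters overlap, and that of the Ptprn-led cluster lies above all of them. Among cells thinned to 5000 UMIs, 26.3% (22.0 to 31.0%) of Ptprn-led cells had a Slc16a3 UMI, against 2.14% to 2.68% in the other tumour clusters, and the unthinned share in Ptprn-led cells was 55.0%. Tumour B-like cells had 0 Slc16a3 UMIs in 52 cells at a median of 2615.5 UMIs, which allows a level of up to 17.6 CPM.

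Among the clusters shown, Egln3 and Bnip3 were also highest in the Ptprn-led cells, with other orders among the remaining clusters. Egln3 was at 56.4 CPM (52.0 to 61.2) in Ptprn-led cells and between 1.36 and 7.07 CPM in the other tumour clusters. Bnip3 was at 108 CPM (102 to 115) in Ptprn-led cells and between 18.1 and 28.7 CPM in the others, where the normal clusters had 14.1 and 13.4 CPM. These normal clusters held 124 and 65 of the 257 normal Bnip3 UMIs. The rest came from the 39 normal cells outside them, so high Bnip3 was not confined to the Ptprn-led cells. Eno1 was at 82.2 CPM (76.8 to 87.9) in Ptprn-led cells and between 14.2 and 17.4 CPM in the other tumour clusters. The normal Adamts16-led and Cxcl14-led clusters had 18.9 CPM (15.2 to 23.2) and 22.6 CPM (19.5 to 25.9). The intervals of the other tumour clusters each overlapped that of the Adamts16-led cluster. Summed without the Ptprn-led cluster, tumour Eno1 was 0.765-fold of normal (0.650 to 0.901), so the higher level of the whole tumour sum came from the Ptprn-led cells. Of the 86 tumour UMIs of Car12, 81 came from Ptprn-led cells, and so did 48 of the 50 of Car9.

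Hk2 was not highest in the Ptprn-led cells. It was at 54.4 CPM (49.7 to 59.5) and 174 CPM (162 to 186) in the normal Cxcl14-led and Adamts16-led clusters, and at 1096 CPM (1069 to 1124) in the Smpd3-led, 769 CPM (751 to 788) in the Chodl-led, 836 CPM (807 to 866) in the Try5-led and 836 CPM (818 to 853) in the Ptprn-led cluster. All 4 tumour clusters were above both normal clusters, and the Ptprn-led and Try5-led levels did not differ beyond counting error. Of the 1684 normal Hk2 UMIs, 480 and 845 were in the Cxcl14-led and Adamts16-led clusters. The rest came from the 39 normal cells outside them, whose level thus lay above that of either normal cluster. At 5000 UMIs per cell, 14.1% and 36.8% of normal and 81.0% to 91.8% of tumour cells of these clusters had a Hk2 UMI. Tumour B-like cells were at 52.7 CPM (24.1 to 100.02), with a Hk2 UMI in 11.5% of cells.

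In all, 7 members had every tumour cluster above every normal cluster, namely Slc2a1, Hk2, Ldha, Slc16a3, Hif1a, Ddit4 and Mif, and 2, Hk1 and Pfkp, had every tumour cluster below. The like shares over all genes were not counted, and the 39 normal cells outside the normal clusters were left out of this order. For Ldha, 2027 and 690 of the 2926 normal UMIs were in the Cxcl14-led and Adamts16-led clusters. The rest came from those 39 cells, whose Ldha level thus lay above that of either normal cluster. Ddit4 was at 12.6 and 6.37 CPM in the normal clusters, 113 CPM in the Smpd3-led, 173 CPM in the Try5-led, 207 CPM in the Chodl-led and 372 CPM in the Ptprn-led cluster. Mif was at 109 and 42.7 CPM in the normal clusters and at 246, 231, 362 and 1014 CPM in the Smpd3-led, Try5-led, Chodl-led and Ptprn-led clusters. Adm had another order, at 222 and 134 CPM in the normal clusters, 224 CPM (212 to 237) in the Smpd3-led and 121 CPM (110.5 to 133) in the Try5-led cluster, and only 24.5 and 34.9 CPM in the Chodl-led and Ptprn-led clusters. Against the 187 CPM of the normal sum, Adm was thus lower in the Try5-led cluster and most of all in the Chodl-led and Ptprn-led clusters. The Try5-led interval overlapped that of the normal Adamts16-led cluster, 124 to 145 CPM. Vldlr was at 44.8 CPM (40.5 to 49.4) in the normal Cxcl14-led and 187 CPM (175 to 199.8) in the normal Adamts16-led cluster. Among tumour clusters it was at 57.2 CPM (51.0 to 63.8) in the Smpd3-led, 26.1 CPM in the Try5-led, 27.1 CPM in the Ptprn-led and 8.87 CPM in the Chodl-led cluster. The Smpd3-led level thus lay above that of the larger normal cluster.

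**Figure D2:**
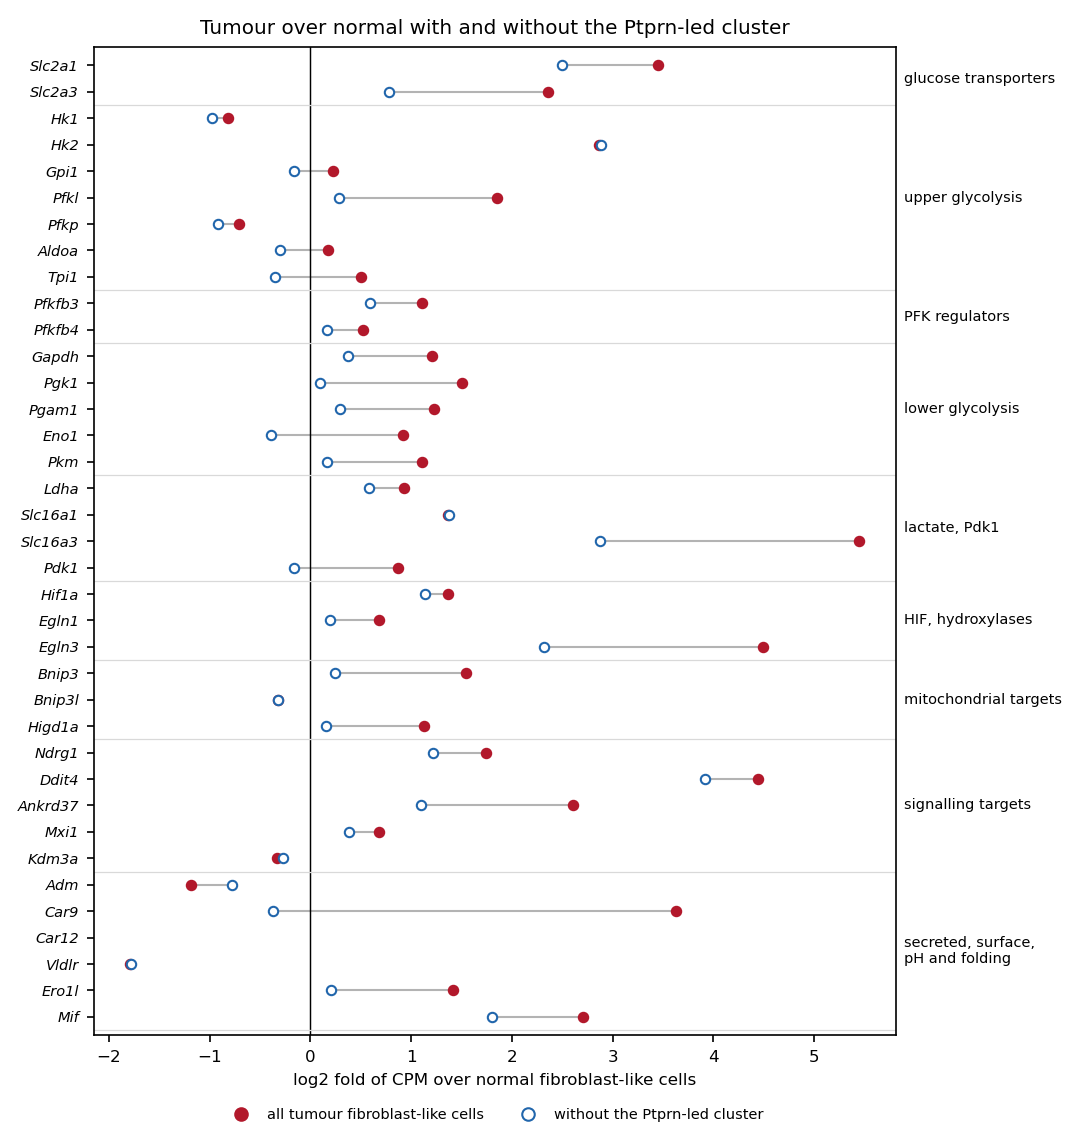
Log2 fold of CPM over normal fibroblast-like cells for all tumour fibroblast-like cells (filled) and without the Ptprn-led cluster (open). Hk2, Slc16a1, Bnip3l and Vldlr hardly move, while Slc16a3 goes from 5.45 to 2.88 and Bnip3 from 1.55 to 0.25. Car12 has no normal UMI and is not drawn.

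Leaving out the Ptprn-led cells lowered the median log2 fold over normal to 0.17 for 13 glycolysis members and to 0.21 for 13 hypoxia response members, against −0.26 over all genes. Slc2a1 was then at 35.5 CPM (32.8 to 38.3), under the 50 CPM needed for a call but still 5.65-fold (4.52 to 7.14) above the 6.27 CPM of normal cells. Gapdh was at 401 CPM, 1.30-fold above normal (1.25 to 1.35). Hk2 kept a fold of 7.40 (7.04 to 7.79), Ddit4 of 15.1 (12.9 to 17.9), Mif of 3.49 (3.28 to 3.71), Hif1a of 2.19 (2.07 to 2.32) and Ndrg1 of 2.33 (2.16 to 2.50).

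Other features moved with the Ptprn-led cluster. Depth was 26316 UMIs at the median, and 17.9% of its cells had an Mki67 or Top2a UMI, against 3.33% of the other tumour fibroblast-like cells, both shares without thinning. Immediate early genes, a sign of handling as well as of signalling, summed to 18756 CPM, against 31162 CPM in the other tumour cells and 16418 CPM in normal ones. Markers of ductal or tumour epithelial cells summed to 2096 CPM against 538 CPM. Most of both sums was 1 marker, Spp1, at 1948 CPM against 480 CPM, and the defining epithelial gene Epcam was at 0.192 CPM in Ptprn-led cells. Macrophage markers summed to 27.4 and 18.1 CPM and mitochondrial UMIs were 2.59% and 2.33%. Without cells that had an Mki67 or Top2a UMI, the tumour against normal comparison again gave 12 higher and 2 lower members. The comparison of Ptprn-led with other tumour cells was not repeated without them. At 5000 UMIs per cell, 18.6% of Ptprn-led cells had an Egln3 UMI against 0.298% to 2.99% in the other tumour clusters, 29.4% a Bnip3 UMI against 7.75% to 9.23%, and 39.4% a Slc2a1 UMI against 11.3% to 13.5%. The parts of the other features were not tested.

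Within the Ptprn-led cluster the members varied together from cell to cell. After thinning to 10000 UMIs, 376 of its 391 cells remained and 23 members had a UMI in at least 25% of them. The median Spearman correlation over their 253 pairs was 0.22, as a description across cells of 1 library. The strongest pairs were Gapdh with Pgam1 at 0.68, Gapdh with Mif at 0.67 and Gapdh with Pkm at 0.65. Bnip3 and Mif, both hypoxia response members, reached 0.63. Hk2 stood apart again, with a median of 0.13 over its 22 pairs. At 5000 UMIs per cell, the median over pairs was 0.25 in 388 Ptprn-led cells, and 0.01 in Chodl-led, 0.03 in Smpd3-led, 0.01 in Try5-led, 0.01 in normal Cxcl14-led and 0.00 in normal Adamts16-led cells. No pair passed 0.3 in those 5 clusters, and 69 of 190 did in the Ptprn-led cluster. Pairs of other genes at like levels were not counted, so whether members vary together more than other genes there was not tested. The number of members frequent enough to enter was 13 to 15 in the former and 20 in the latter, and the part of this difference in the medians was not tested.

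The same cells were split by whether they had a Slc16a3 UMI, a description chosen after the data were seen. At 10000 UMIs per cell, 144 cells had at least 1 and 232 had none, with median depths before thinning of 26576 and 26585 UMIs. Of the 36 other members, 27 had a mean at least 2 times as high in the 144 cells, not counting Car9, which had 16 UMIs in these and 0 in the others. At 20 CPM or more over all cells of the split, 24 of 30 members were at least 2 times as high, against 1.24% of 5475 genes. Bnip3 averaged 2.53 UMIs per cell against 0.379, Egln3 1.31 against 0.198, Slc2a1 2.14 against 0.677, Ero1l 2.26 against 0.591 and Gapdh 19.5 against 8.70. Adm averaged 0.507 against 0.190 and Vldlr 0.472 against 0.185, so that both genes with lower tumour sums were higher in these cells. Hk2 averaged 8.92 against 8.29, Hif1a 3.92 against 3.28, Ddit4 4.15 against 3.34, Slc16a1 0.292 against 0.280 and Hk1 0.292 against 0.349. Outside the list, the angiogenic factor Vegfa averaged 11.0 against 4.31 and Hilpda, a lipid droplet protein, 6.14 against 2.94. The myofibroblast gene Acta2 averaged 12.5 against 9.63 and Col1a1 149 against 119. An Mki67 or Top2a UMI was found in 7.64% and 11.6% of the cells.

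**Figure D3:**
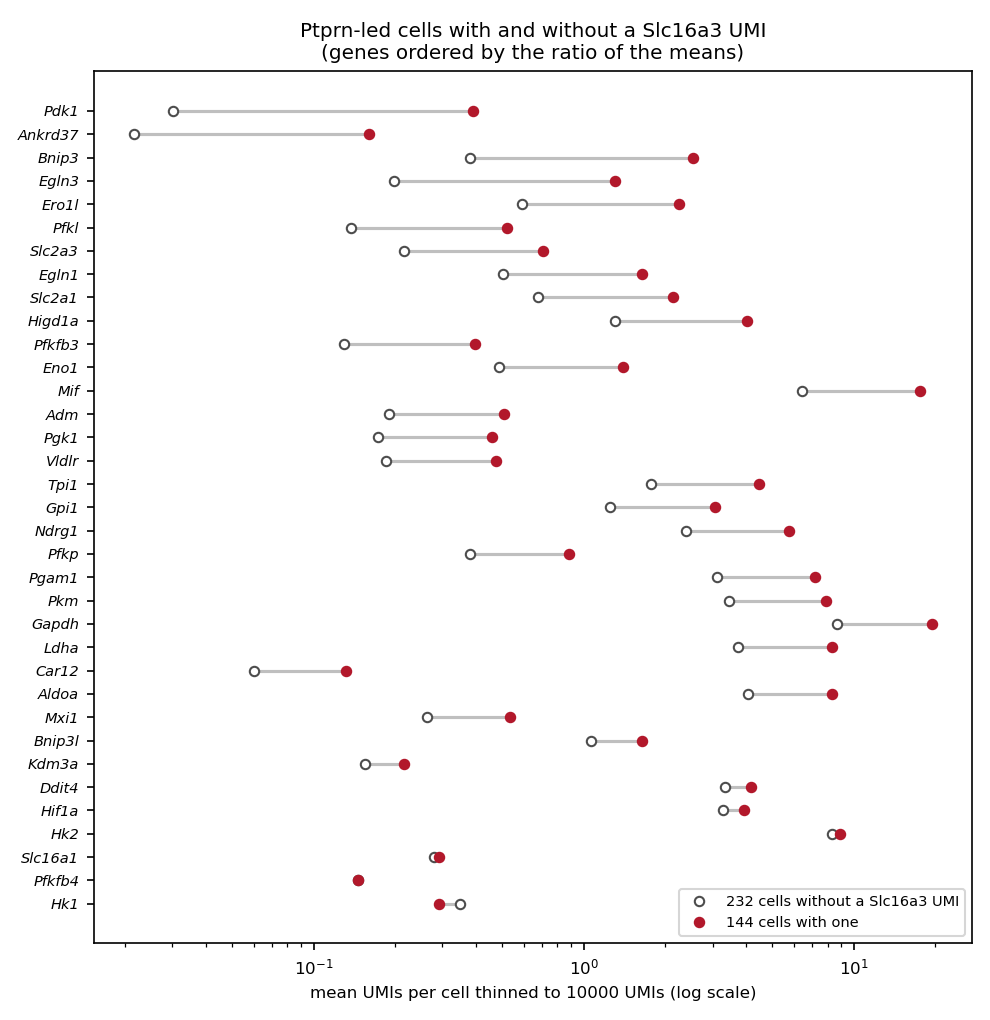
Mean UMIs per cell, at 10000 UMIs per cell, of the members in 144 Ptprn-led cells with a Slc16a3 UMI (filled) and 232 without (open), ordered by their ratio. Bnip3 and Egln3 lie near the top, at 2.53 against 0.379 and 1.31 against 0.198, and Hk2, Hif1a and Ddit4 near the bottom. Car9, with 16 UMIs and 0, has no ratio and is not drawn.

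Genes of related pathways, from lists chosen with earlier results of these data known, were read the same way. In tumour against normal fibroblast-like cells, 1 of 4 other glycolysis and lactate genes that reached 50 CPM was called higher, against 9.42% of all genes, Bpgm, an enzyme of the 2,3-bisphosphoglycerate shunt, at 65.3 CPM against 12.1 CPM. Bsg, the chaperone of MCT4, was at 519 and 358 CPM, 1.45-fold higher. Of 24 other hypoxia response genes, 10 were called higher and 3 lower, against 9.42% and 10.9% of all genes. Among those at the ends Ier3, also an immediate early gene, was at 1671 CPM against 61.0 CPM and Hilpda at 221 against 21.8 CPM. Edn1 was at 21.9 against 64.0 CPM and Selenbp1 at 27.2 against 104 CPM. None of 12 genes of pyruvate dehydrogenase and the citric acid cycle and none of 4 of the pentose phosphate pathway was called, with median log2 folds of −0.21 and −0.35 that lie near the −0.25 of all genes. In the Ptprn-led cluster against the other tumour fibroblast-like cells, Bpgm and Bsg were called higher of 5, at 99.1 against 46.1 CPM and 765 against 380 CPM, and 8 of 21 other hypoxia response genes were higher and 2 lower, where 5.57% and 7.58% of all genes were called. None of 10 citric acid cycle genes was called there, with a median log2 fold of 0.17. Of the MYC and E box regulators, Myc stood at 48.1 CPM in normal against 177 CPM in tumour cells, and at 91.8 CPM in Ptprn-led against 225 CPM in the other tumour cells, an order opposite to that of most members.

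High levels of the members were not particular to fibroblast-like cells. Among 10 groups of class and library with at least 50 cells, 28 of the 37 members were highest in the tumour macrophage-like or monocyte-like cells, a group of 50 cells, 3 in tumour fibroblast-like cells, 3 in tumour lymphatic endothelial-like cells, 2 in normal fibroblast-like cells and 1 in the unnamed normal cluster. No such order was counted over all genes. For 8 of the 28 the interval overlapped that of the next group, namely Slc2a3, Hk1, Pgk1, Pdk1, Bnip3l, Ankrd37, Kdm3a and Car9, and so it did for all 3 members of the lymphatic cells and for the 1 of the unnamed cluster. The 3 highest in tumour fibroblast-like cells were Hk2, Slc16a1 and Ddit4, of which Slc16a1 overlapped the next group within counting error. The 2 highest in normal fibroblast-like cells were Adm and Vldlr. Ndrg1 was at 326 CPM in tumour lymphatic endothelial-like and 325 CPM in normal endothelial-like cells, which did not differ beyond counting error, above the 233 CPM of tumour fibroblast-like cells.

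One cluster of macrophage-like or monocyte-like cells, led by Ear2 and marked by Ccr2, held cells of both libraries, 369 normal and 49 tumour cells with medians of 6857 and 7820 UMIs. Of 27 members that reached 50 CPM there, 26 were called higher in the tumour cells, against 16.4% of 3387 genes, and none lower, against 11.5%. Of the 26, 12 reached 50 CPM in the tumour cells only, among them Slc16a3, Slc2a1, Egln3 and Adm, so their place among the 27 depends on the tumour cells. The other 14 were at 50 CPM or more in both groups. Slc16a3 was at 30.2 CPM (24.3 to 37.1) in normal and 376 CPM (323 to 434) in tumour cells, Slc2a1 at 14.8 CPM (10.7 to 19.8) and 396 CPM (342 to 456), and Egln3 at 1.34 CPM (0.366 to 3.44) and 184 CPM (148 to 226). Hk2, at 127 CPM and 376 CPM, differed 2.96-fold here and 7.27-fold in fibroblast-like cells, and Adm, at 1.34 CPM and 122 CPM, was higher rather than lower in the tumour. In the tumour cells of this cluster Pdpn was at 192 CPM, against 1.68 CPM in the normal ones, and Col1a1 was at 12.4 CPM. Neutrophil markers summed to 9772 CPM against 241 CPM and Spp1 was at 4223 CPM against 19.8 CPM, and the part of these cells in the differences was not tested. The number of tumour cells is small, and the class was sorted on PDPN in the tumour only.

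**Figure D4:**
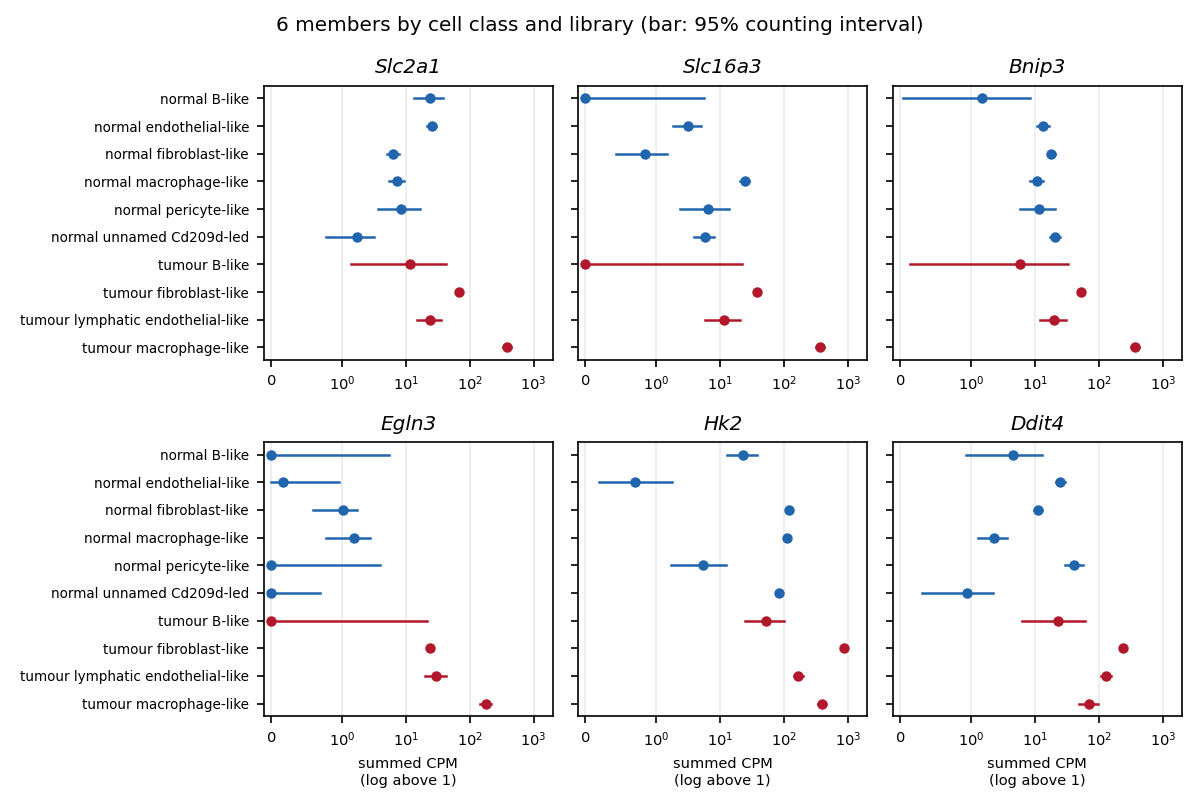
Summed CPM with 95% counting intervals of 6 members in the 10 groups of class and library with at least 50 cells, on axes that are logarithmic above 1 CPM, normal in blue and tumour in red. Slc2a1, Slc16a3, Bnip3 and Egln3 are highest in the 50 tumour macrophage-like or monocyte-like cells, and Hk2 and Ddit4 in the tumour fibroblast-like cells.

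B-like cells gave a different picture. With 70 normal and 52 tumour cells, Gapdh was at 547 CPM (493 to 607) and 533 CPM (429 to 654), Ldha at 181 CPM (151 to 217) and 199 CPM (138 to 278), and Pkm at 118 CPM (93.8 to 148) and 129 CPM (80.7 to 195). The interval of the fold included 1 for all 3, from 0.765 to 1.23 for Gapdh. Mif was at 310 CPM (270 to 356) in normal and 199 CPM (138 to 278) in tumour B-like cells, 1.56-fold lower (1.08 to 2.31). Gpi1 was at 208 CPM (175 to 246) and 117 CPM (71.5 to 181), 1.78-fold lower (1.11 to 3.00). Slc16a3 and Egln3 had 0 UMIs in both groups. The tumour B-like cells were shallow, with a median of 2615.5 UMIs against 9737, so differences in most rarer members were not detectable at this depth. Normal B-like cells had 74 Adm UMIs, 111 CPM, in 37.1% of cells, while normal macrophage-like cells were at 3.42 CPM and normal endothelial-like cells at 6.77 CPM. Tumour B-like cells had 0 Adm UMIs, so Adm was lower there, with a fold interval of 0 to 0.200.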

How the data were processed

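The authors deposited UMI counts for each gene in each barcode, without normalization, made with Cell Ranger 3.1.0 on mm10 per the submitters' processing notes. No column of the tables was without a sample (0). Kept barcodes had 500 genes or more, 1000 UMIs or more and no more than 10% of mitochondrial UMIs. Scrublet removed 101 normal cells. It marked 0.0777% of tumour cells, under a limit of 0.5%, so the 53 top scores were removed, from a rate of 0.8% per 1000 cells. Cells of both libraries were clustered jointly, the 37 members kept out of the variable genes (scanpy 1.11.5, igraph 0.11.9, 2000 variable genes, 30 components, 15 neighbours, Leiden resolution 0.5) and classes named from fixed markers. Counts were summed and scaled to CPM, with exact Poisson intervals of levels and ratios and Clopper-Pearson intervals of shares (scipy 1.17.1). TMM factors came from edgeR 4.0.16 in R 4.3.3. These intervals cover counting error only. The calculation was tested on simulated data. Where a sum held 0 UMIs, 3 counts served as its limit.

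All 37 members are named. Members, lists and tests were chosen with earlier results of these data known. Gene positions came from GENCODE vM21 on GRCm38. Sequences came from RefSeq. Slc2a3, Bnip3l, Ndrg1 and Ero1l had no entry in the promoter table. In all, 16 alternatives were tried for the comparison of tumour with normal fibroblast-like cells.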

Additional observations from a re-analysis of the deposited data

How the results depend on the processing

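With 1 library per group, leaving out a replicate was not possible. No paired analysis was possible because each group has 1 library. Against the 12 members higher and 2 lower in tumour fibroblast-like cells, the count higher became 22 with no minimum level, 5 with every cell weighted the same, 6 after thinning to 5000 UMIs and 5 without the Ptprn-led cluster, the tumour cluster of highest median UMI count. The count lower became 1 under TMM scaling, under median ratio scaling, without the Ptprn-led cluster and without the largest tumour cluster, the Chodl-led one, and 0 over all retained cells. The last setting compares libraries of different cell makeup, and there Adm turned from a log2 fold of −1.18 to 0.010. Without the Ptprn-led cluster the median log2 fold fell to 0.17 for the glycolysis members and 0.21 for the hypoxia response members. Under the other 15 alternatives the medians ran from 0.65 to 1.43 and from 0.72 to 1.71. Of the 12 members called higher, Hk2, Hif1a, Ndrg1, Ddit4 and Mif were called in all 16 alternatives. Among folds of single members under the alternatives, 385 stayed within their counting interval, 190 moved outside it and 1 reversed the direction of a call. In 17 cases, over 11 members, the sign changed (Adm, Aldoa, Bnip3l, Car9, Eno1, Gpi1, Kdm3a, Pdk1, Pfkfb3, Pfkfb4 and Tpi1), and of these only Adm was called. Median ratio scaling put 74.3% of the genes past 2-fold on the higher side. Depth limits members under 20 CPM, such as Car9, Car12 and Ankrd37, and groups of few cells.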

Other observations

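A group of 42 tumour cells led by Cldn18, named ductal-like or tumour epithelial-like, entered no comparison because it held under 50 cells. In these cells Gapdh was at 2660 CPM, Ldha at 1055 CPM, Mif at 1095 CPM, Slc16a3 at 121 CPM, Slc2a1 at 76.1 CPM and Hk2 at 601 CPM. Epcam was at 616 CPM there. Mif RNA was thus at like levels in these cells and in the Ptprn-led fibroblast-like cells, at 1014 CPM.

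Of 21 immediate early genes, 6 were called lower in Ptprn-led cells than in the other tumour fibroblast-like cells, against 7.58% of all genes. None was called higher, against 5.57%. Socs3 was at 111 CPM against 514 CPM, while Fosl1 and Ier3 stood at 53.3 against 29.6 CPM and 2017 against 1476 CPM. In all tumour against normal fibroblast-like cells, 8 of 20 immediate early genes were called higher, against 9.42% of all genes, and none lower, against 10.9%. In Ptprn-led cells with a Slc16a3 UMI, Fos averaged 12.3 UMIs per 10000 against 28.6 in those without, and Myc 0.917 against 0.823. The unfolded protein response gene Hspa5 averaged 14.2 against 14.7 in the same cells, and the part of that response in the Ero1l level was not tested.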
